A study of Mus musculus with 4 samples.

Results

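Tumor blood vessels from B16 melanoma were profiled on 4 Affymetrix arrays, and the comparison here is between the 2 on which melanoma genes were bright, clonal expansion from tumor A and clonal extinction from tumor B. They were chosen, out of the 4 arrays, from the measured levels of pigment genes: the median of 11 pigment genes was 12.99 on expansion A and 12.09 on extinction B, against 7.45 on extinction A and 6.59 on expansion B. Levels are log2 values after robust multi-array averaging (RMA), so a difference of 1 is 2-fold, and every difference is expansion A minus extinction B. The choice itself is therefore not a finding, and what follows describes how the chosen pair differed within itself.

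All 4 samples came from C57BL/6 hosts carrying a multi-color Cre reporter, which marks cells and their descendants with 1 of several colors after tamoxifen. B16, an established mouse melanoma line of the same strain, was injected, and the tumors were dissociated 2 weeks later. Cells were sorted as negative for CD45 (a leukocyte surface protein) and positive for CD31 and CD144 (endothelial junction proteins). The labels divide them by clone frequency into expansion and extinction, with 1 array for each class in each of 2 tumors. The driver of the Cre, the age of the hosts and the number of hosts or clones behind an array are not given in the sources used here. There was 1 array a side, so no difference has a replicate check, no SD and no test. Since the arrays differ in both tumor and clone class, those labels cannot be told apart in this pair.

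Melanocytes and the melanomas that arise from them make melanin inside melanosomes, through tyrosinase and its relatives on a scaffold of fibrils, under the transcription factors MITF and SOX10. Tumor endothelial cells line vessels that also hold pericytes and lie in fibroblast matrix, and they express adhesion molecules, VEGF and angiopoietin receptors, and ETS and SOXF transcription factors. A sort for CD31 and CD144 is meant to keep endothelial cells, so pigment genes are not part of their usual profile.

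The array medians lay between 5.73 and 5.83 and the highest values between 14.89 and 15.03, and 64 control probe sets were kept apart from 18193 genes. All 18 probe sets for the bacterial RNAs added at hybridization were higher on extinction B than on expansion A, with a median difference of -1.06, and each was highest there among the 4 arrays. Likewise, 24 of 24 probe sets for the RNAs added before labelling were higher on extinction B, with a median difference of -0.81. The 3 Gapdh control probe sets were higher on expansion A, with a median difference of 0.68, while the median for the 3 Actb control probe sets was 0.10. Whether the amount of sample RNA on these arrays had a part in the differences below was not tested.

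Pigment genes were bright on both arrays and mostly higher on expansion A. Tyr, the tyrosinase that starts melanin synthesis, was at 11.85 on expansion A and 10.55 on extinction B, against 6.27 on extinction A and 4.30 on expansion B, and so 2.46-fold higher on expansion A within the pair. The mean over the probe sets of Tyr gave a smaller difference, 0.81 against 1.30. Dct, the dopachrome tautomerase of the same pathway, was at 14.36 and 13.84, against 9.79 and 7.62, a difference of 0.52. For both enzymes the 2 melanoma-rich arrays stood apart from the others, and the step between them was small beside that gap.

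Pmel, which forms the melanosome fibrils, was at 14.40 on expansion A and 13.82 on extinction B, against 9.90 and 7.80 on extinction A and expansion B. Mlana, a melanosome membrane protein, was at 12.99 and 12.35, against 7.45 and 7.01. Their differences within the pair, 0.58 and 0.64, were like that of Dct and under 2-fold. Tyrp1, the third enzyme of the tyrosinase family, stood at 13.80 on expansion A and 13.61 on extinction B, a difference of 0.19. Gpnmb, a melanosome glycoprotein that macrophages also make, stood at 12.99 and 12.68, against 8.76 and 9.09, a difference of 0.31. These were the smallest differences in favour of expansion A in the list.

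Tspan10 and several other membrane proteins of the melanosome were further apart. Tspan10, a tetraspanin of pigment cells, was at 11.27 on expansion A and 9.48 on extinction B, 3.46-fold higher on expansion A, against 5.55 on extinction A and 5.79 on expansion B. Oca2, which sets melanosome pH, was at 10.37 and 9.19, a difference of 1.17. Gpr143, a receptor in the melanosome membrane, was at 10.50 and 9.43, a difference of 1.07. With Tyr, these were the 4 of 11 genes at least 2-fold higher on expansion A, where 1.62% of all genes were that much higher. Slc45a2, a melanosome transporter, came close at 13.00 and 12.09, a difference of 0.91. Trpm1, a cation channel, was the exception in direction, at 11.69 on expansion A and 11.78 on extinction B. In all, 10 of the 11 were higher on expansion A, with a median difference of 0.64 where the median over all genes was 0.04, and all 11 were higher on each of these arrays than on either of the others. In material sorted in bulk, more cells of a type and more RNA per cell cannot be told apart.

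**Figure D1:**
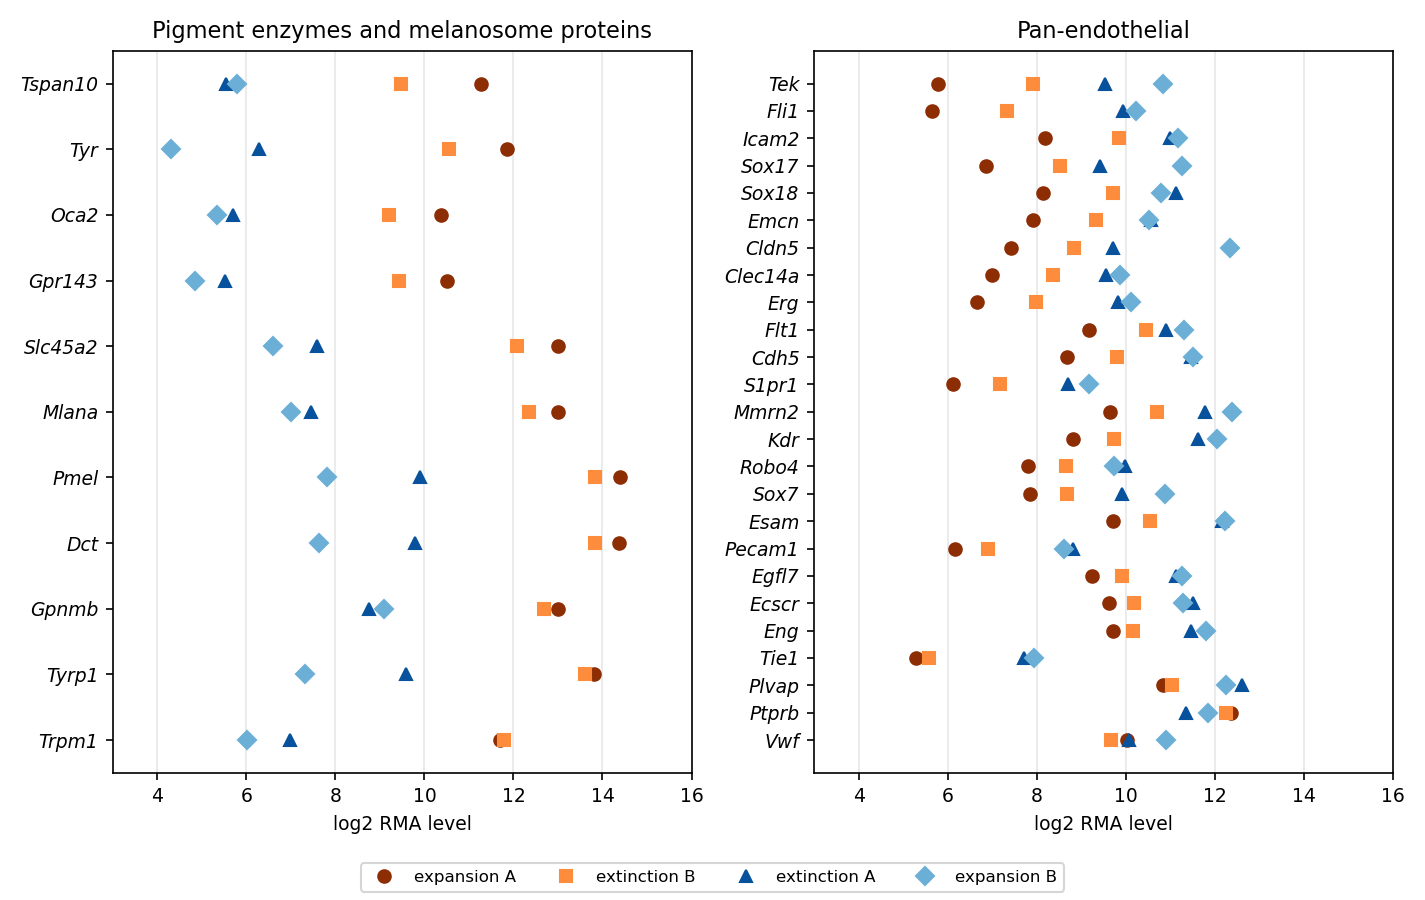
Log2 RMA level of each pigment gene (left) and each pan-endothelial gene (right) on the 4 arrays, 1 point an array, ordered by the size of the difference between expansion A and extinction B. Expansion A lies to the right of extinction B for 10 of 11 pigment genes and to its left for 23 of 25 endothelial genes, and for 24 of those 25 both lie to the left of extinction A and expansion B.

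The upstream sequences of 4 pigment genes are shown because the first 3 make up the tyrosinase family, which was bright on both arrays, and the fourth gene was furthest apart between them. Each window is the 250 bases before the RefSeq transcript start in GRCm38.p6, written 5′ to 3′ on the strand of the gene. Capitals mark CATGTG on either strand, an E-box of the kind MITF is known to bind. The windows lie at chr7:87493513-87493762 (minus strand) for Tyr, chr4:80833963-80834212 (plus) for Tyrp1, chr14:118052247-118052496 (minus) for Dct and chr11:120442381-120442630 (plus) for Tspan10.
Tyr: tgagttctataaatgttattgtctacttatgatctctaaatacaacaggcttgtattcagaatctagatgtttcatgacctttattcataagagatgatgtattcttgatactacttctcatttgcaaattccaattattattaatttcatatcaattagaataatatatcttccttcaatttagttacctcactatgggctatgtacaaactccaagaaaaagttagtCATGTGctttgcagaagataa
Tyrp1: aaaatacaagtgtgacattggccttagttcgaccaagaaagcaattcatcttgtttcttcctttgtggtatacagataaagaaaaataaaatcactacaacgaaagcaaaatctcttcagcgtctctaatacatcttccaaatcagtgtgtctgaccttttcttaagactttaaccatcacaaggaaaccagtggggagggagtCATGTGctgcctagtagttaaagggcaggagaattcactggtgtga
Dct: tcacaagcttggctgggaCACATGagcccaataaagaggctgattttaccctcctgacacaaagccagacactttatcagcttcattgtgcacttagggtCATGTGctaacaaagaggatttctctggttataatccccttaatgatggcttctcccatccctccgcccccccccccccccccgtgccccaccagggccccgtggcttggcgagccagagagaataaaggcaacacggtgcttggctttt
Tspan10: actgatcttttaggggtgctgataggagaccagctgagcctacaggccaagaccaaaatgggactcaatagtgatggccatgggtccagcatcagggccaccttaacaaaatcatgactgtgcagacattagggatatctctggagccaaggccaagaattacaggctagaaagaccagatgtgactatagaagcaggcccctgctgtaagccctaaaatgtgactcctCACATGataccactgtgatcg
Tyr and Tyrp1 hold it on the strand of the gene, Tspan10 on the opposite strand, and Dct once on each. Of the 11 measured pigment genes, 7 were in the RefSeq promoter table and 6 of them held CATGTG in this window, Gpnmb being without it. The letters were in 12.3% of all 32851 windows and in 10.4% of the 14452 measured genes in the table. Of the pan-endothelial genes, 11 were in the table and 0 held it. A match is a run of letters and not a measured binding site.

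Among 14 melanocyte transcription factors and receptors, 10 were higher on expansion A and 2 were so by 2-fold, beside 1.62% of all genes. Counts by direction, in this and the other lists, are to be read beside all 18193 genes. Of those, 9991 were higher on expansion A and 8161 lower. On expansion A and on extinction B, 9 of the 14 were above both other arrays. Kit, at 6.97 and 6.66 against 8.30 and 6.94, was not among them. Nor was Snai2, at 9.78 and 9.91 against 10.63 and 10.94. Sox10, a neural crest factor, was at 11.34 on expansion A and 9.46 on extinction B, against 6.99 and 6.95 on extinction A and expansion B, although only 2 of its 3 probe sets shared the direction. Mitf, the main regulator of pigment genes, was at 12.29 and 11.16, against 8.84 and 8.77, and its difference of 1.13 was 0.81 as the mean of its probe sets. Both factors were thus highest on expansion A and above both other arrays on extinction B. Pax3, which acts upstream of Mitf, was closer at 11.86 on expansion A and 11.43 on extinction B. Mc1r, the melanocortin receptor, stood at 10.59 and 10.34. Ednrb, the endothelin receptor of melanocytes and also of endothelial cells, was the other way, at 8.74 on expansion A and 9.49 on extinction B. The list's median difference was 0.15, and 0.07 after the lowess fit, below that of the pigment genes.

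Genes that build and move melanosomes were higher on expansion A in 18 of 19 cases, but by small steps, with a median difference of 0.56. Lyst, a regulator of lysosome-related organelle size, was the 1 member past 2-fold, beside 1.62% of all genes. It was at 9.67 on expansion A and 7.97 on extinction B, and only 1 of its 3 probe sets shared that direction. Of 17 melanoma genes outside pigmentation, 13 were higher on expansion A and 4 on extinction B. The median difference of 0.23 ranged from 0.09 with the mean of probe sets to 0.54 with dim probe sets left out. Only 10 on expansion A and 9 on extinction B were above both other arrays. In 4 genes both arrays of the pair were below the median of all probe sets. Slc16a6 was at 6.79 on expansion A and 7.54 on extinction B, against 7.99 and 7.33. Nes was at 8.18 and 7.98, against 8.91 and 8.39. Kcnj13, a potassium channel, was at 10.62 on expansion A and 8.99 on extinction B, 3.09-fold apart. S100b, a calcium-binding protein of melanoma and Schwann cells, was at 10.74 and 9.31, 2.7-fold apart. These were the 2 members past 2-fold, beside the same 1.62% of all genes. Ptgds, a prostaglandin synthase, was at 13.70 and 12.72. Met, the receptor for hepatocyte growth factor, was closer at 13.41 and 13.17. Syt4, a vesicle synaptotagmin, was at 12.97 and 12.37, 1.51-fold apart, with 1 of its 2 probe sets in that direction.

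Without reference to any list, 471 genes were at least 2-fold higher on each of the melanoma-rich arrays than on either other array. Their median difference within the pair was 0.29, 46 were at least 2-fold higher on expansion A and 8 on extinction B. Over all genes these shares were 1.62% and 2.37%. In 29 of the 471 genes the gap to the other arrays was at least 16-fold, and the median difference within the pair was then 0.48. Car6, a secreted carbonic anhydrase, had the widest gap, at 11.64 on expansion A and 11.84 on extinction B, against 6.45 and 5.50. Slc38a1, a glutamine transporter, was at 11.81 and 11.65, against 6.72 and 5.57. Adamts20, a matrix protease needed for melanoblast survival, was at 9.26 and 8.78, against 3.93 and 3.86. These genes were selected on the same arrays, so their gaps are a description of the selection.

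The endothelial genes that remained were mostly lower on expansion A than on extinction B. Of 25 pan-endothelial genes, 23 were lower on expansion A and 13 were so by 2-fold, where 2.37% of all genes were at least 2-fold higher on extinction B. The list's median was 8.15 on expansion A and 9.67 on extinction B, against 10.56 on extinction A and 11.17 on expansion B, and the median difference was -1.04. The pigment list and the endothelial list thus lay in opposite directions in the pair, and the part that the share of melanoma RNA had in either was not tested.

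The sort markers were measured on both arrays. Pecam1, which encodes CD31, was at 6.16 on expansion A and 6.90 on extinction B, against 8.82 and 8.61 on extinction A and expansion B. Cdh5, which encodes CD144, was at 8.69 and 9.80, against 11.46 and 11.51, although only 1 of its 2 probe sets shared the direction and their mean differed by -0.44. Both were lowest on expansion A and next lowest on extinction B. Ptprc, which encodes CD45, was dim on all arrays, at 3.85 on expansion A, 3.63 on extinction B, 3.93 on extinction A and 4.27 on expansion B. Of the 25 endothelial genes, 22 on expansion A and 24 on extinction B reached the all-probe-set median of 5.83, so endothelial genes were measured beside the melanoma genes on both.

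Differences ran from -2.14 for Tek to 0.36 for Vwf across the list. Tek, the angiopoietin receptor, was at 5.78 on expansion A and 7.92 on extinction B, 4.42-fold lower on expansion A, against 9.53 and 10.84. Fli1, an ETS factor, was at 5.65 and 7.33, against 9.94 and 10.24. Sox17, a SOXF factor of arteries, was at 6.87 and 8.52, against 9.43 and 11.26. For all 3, expansion A was the lowest array, extinction B came next, and extinction A and expansion B were above both. Icam2, an adhesion molecule, was at 8.19 on expansion A and 9.85 on extinction B, and Cldn5, the main endothelial claudin, was at 7.43 and 8.85. Kdr, the main VEGF receptor, missed 2-fold at 8.82 and 9.75. Vwf, von Willebrand factor, was higher on expansion A, at 10.04 and 9.67. Ptprb, a phosphatase that restrains TEK, was the 1 member above both other arrays, at 12.36 on expansion A and 12.26 on extinction B, against 11.36 and 11.86.

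Genes of particular vessel types were lower on expansion A to different extents. All 12 capillary genes were lower there and 4 were so by 2-fold, beside the 2.37% of all genes, with a median difference of -0.56. Cd36, a fatty acid transporter, was at 7.46 on expansion A and 9.10 on extinction B. Fabp4, a fatty acid binding protein of capillaries and fat, was at 12.41 and 13.58. Tip cell genes, which mark the leading cells of sprouts, were lower on expansion A in 18 of 20 cases, 6 of them by 2-fold, beside the same 2.37%, with a median difference of -0.67. Cxcr4, the receptor of CXCL12, was at 6.51 on expansion A and 8.99 on extinction B, against 10.34 on extinction A and 7.37 on expansion B. Kcne3, a potassium channel subunit, was at 8.04 and 10.21, against 10.78 and 9.02. For both, each extinction array was above each expansion array. Ackr3, a scavenger of CXCL12, was at 10.24 on expansion A and 12.10 on extinction B.

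The other vessel lists lay nearer to all genes. Their members past 2-fold were all higher on extinction B, as were 2.37% of all genes. Of 14 arterial genes 8 were lower on expansion A, with a median difference of -0.16, and 1 passed 2-fold, the receptor Notch4 at 8.51 and 9.59, with 2 of its 3 probe sets in that direction. Of 11 venous genes 7 were lower on expansion A and 2 passed 2-fold, with a median of -0.28. These were Lrg1, a secreted glycoprotein, at 5.50 and 7.23, and the adhesion molecule Selp at 8.31 and 9.52. Lymphatic genes had a median difference of -0.05 over 9 genes, with Pdpn, podoplanin, past 2-fold at 10.56 on expansion A and 11.62 on extinction B. Leukocyte adhesion genes had a median of -0.48, and 3 of 12 were at least 2-fold higher on extinction B. With the mean of probe sets the venous median was -0.06 and the adhesion median -0.17, and with dim probe sets left out the arterial median was -0.25 and the lymphatic one -0.30.

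**Figure D2:**
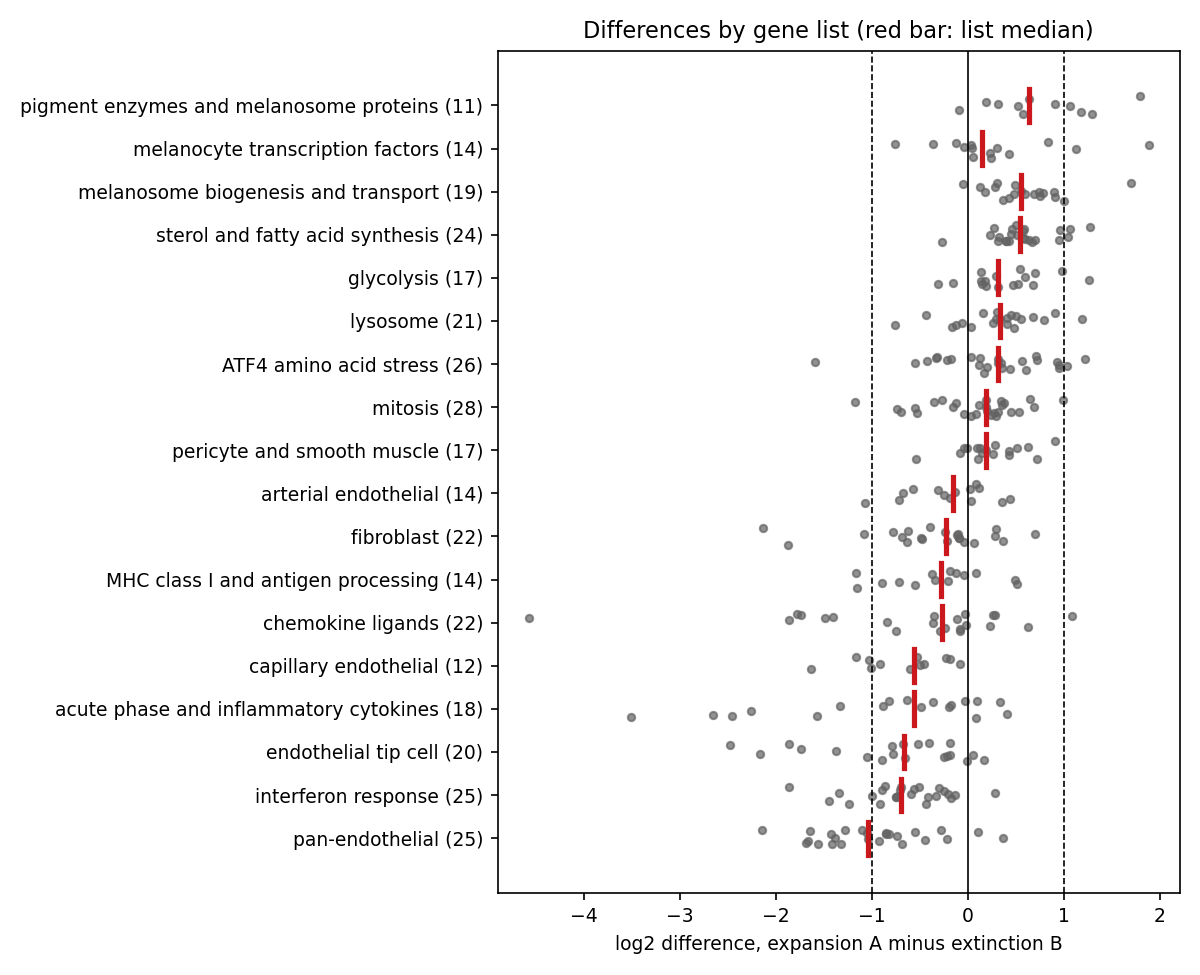
Differences on the log2 scale, expansion A minus extinction B, for the measured genes of the lists, with 1 point a gene, a red bar at the list median, the number of genes in parentheses and dashed lines at 2-fold. The pigment list lies to the right with a median of 0.64 and the pan-endothelial list to the left with a median of -1.04, while the pericyte list is within 2-fold throughout.

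Stromal genes were bright on both arrays, with smaller differences than the endothelial genes. The median of 22 fibroblast genes was 11.67 on expansion A and 11.91 on extinction B, against 12.69 and 12.72 on the others. Col1a2, a chain of collagen I, was at 14.50 on expansion A and 14.60 on extinction B, and Col3a1, collagen III, was at 14.32 and 14.54. Sparc, a matrix protein that endothelial and melanoma cells also make, was at 14.10 and 14.13. For each of these matrix genes the arrays were within 0.22 of each other. Of the list, 17 of 22 were lower on expansion A, with a median difference of -0.23, or -0.41 with the mean of probe sets. Of these, 3 passed 2-fold, where 2.37% of all genes were at least 2-fold higher on extinction B. Pi16, a marker of adventitial fibroblasts, was at 7.78 on expansion A and 9.91 on extinction B, against 9.49 and 12.11. Dpt, dermatopontin, was at 10.21 and 12.08, against 11.53 and 13.22. Pdgfra, the receptor that marks fibroblasts, was at 10.08 and 11.17. Col6a1, a chain of collagen VI, was on the other side at 12.69 on expansion A and 11.99 on extinction B.

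Pericyte and smooth muscle genes were higher on expansion A in 13 of 17 cases, with a median difference of 0.19 and 0 past 2-fold. Rgs5, a marker of pericytes, was at 13.13 on expansion A and 12.41 on extinction B, and Acta2, smooth muscle actin, was at 13.43 and 13.17. Mural genes therefore did not share the direction of the endothelial list in this pair. The 15 basement membrane genes had a median difference of -0.15, or -0.07 with the mean of probe sets, and 0 were past 2-fold. Among 18 matrix proteases and inhibitors the median was -0.10 and 2 were at least 2-fold higher on extinction B, beside 2.37% of all genes. Of these, Adamts5, an aggrecan-cleaving protease, was at 8.46 on expansion A and 10.83 on extinction B, with 3 of 4 probe sets in that direction.

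Marker lists of other cell types were 2-fold apart in 0 to 3 genes each, to be read against 1.62% of all genes 2-fold higher on expansion A and 2.37% on extinction B. Of 10 pan-leukocyte genes 0 were 2-fold apart, and 6 were below the median of all probe sets on both arrays. The median over 14 macrophage genes was 0.00, and -1.07 over the few left when dim probe sets were left out. Csf1r, the CSF1 receptor, was at 8.11 on expansion A and 9.97 on extinction B with 2 of its 3 probe sets in that direction, and Cd14, the lipopolysaccharide co-receptor, was at 7.67 and 8.74. These were the 2 macrophage genes past 2-fold, and 11 of the 14 were below the median of all probe sets on both arrays. Of 16 keratinocyte genes 3 passed 2-fold, all higher on extinction B, led by the secreted skin protein Dmkn at 5.17 and 8.09, against 5.61 on extinction A and 8.42 on expansion B. The basal keratins were not among them: Krt5 was at 6.61 on expansion A and 6.26 on extinction B, and Krt14 was at 5.07 and 4.38. Of 12 adipocyte genes 3 passed 2-fold, among them Car3, a carbonic anhydrase of fat and muscle, at 4.14 and 6.46, against 4.06 and 11.49. Adipoq, adiponectin, was dim at 3.78 and 3.75. Of 15 skeletal muscle genes 0 passed 2-fold. The Schwann cell list had 3 of 8 genes at least 2-fold higher on expansion A, of which Sox10 and S100b are melanoma genes too. The remaining member, Mbp of the myelin sheath, was at 9.57 on expansion A and 8.42 on extinction B, against 5.09 and 9.28.

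Over all genes, 295 were at least 2-fold higher on expansion A and 431 at least 2-fold higher on extinction B, together 3.99% of 18193. At any size, 9991 genes were higher on expansion A and 8161 lower, and at 1.5-fold the counts were 1499 and 1234, so the larger side depended on the size asked for. The median size of the difference was 0.22, and at 4-fold the balance lay with extinction B: 6 genes were at least 4-fold higher on expansion A and 51 on extinction B. Differences ran from -4.57 to 2.35. Of the 295, 277 reached the median of all probe sets on the higher array, and of the 431, 409 did. More than 1 probe set stood for 171 of the 295 genes, and in 102 of those all probe sets shared the direction. The same held for 139 of 242 genes higher on extinction B. With the probe sets of each gene averaged, 163 genes were 2-fold higher on expansion A and 286 on extinction B, of which 147 and 265 were among those above.

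**Figure D3:**
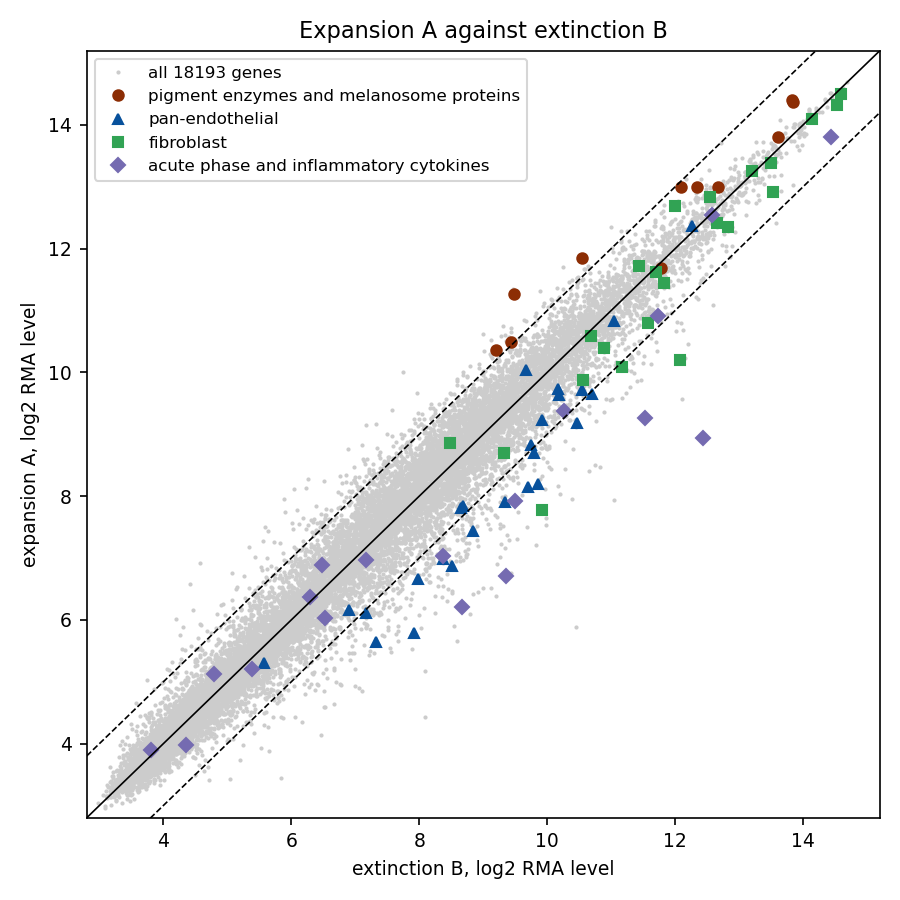
Log2 RMA level of every gene on expansion A (vertical) against extinction B (horizontal), with 1 point a gene, the pigment, pan-endothelial, fibroblast and acute phase lists in color, a solid line at equal levels and dashed lines at 2-fold. Of 18193 genes, 295 lie above the upper dashed line, higher on expansion A, and 431 below the lower one, higher on extinction B.

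The genes furthest toward extinction B included those for secreted, membrane and nuclear proteins. Cxcl13, a chemokine that draws B cells, was at 5.89 on expansion A and 10.46 on extinction B, 23.8-fold apart, with 9.96 on extinction A and 12.31 on expansion B. Ptx3, a pentraxin of innate immunity, was at 8.93 and 12.44, 11.4-fold apart, with 12.43 and 13.50 on the others. Efemp1, a fibulin of the matrix, was at 7.93 and 11.04, with 10.79 and 12.38. In all 3 genes expansion A was the lowest of the 4 arrays and expansion B the highest. Scara5, a ferritin receptor, was at 6.10 on expansion A and 8.80 on extinction B, and Sned1, a matrix protein, was at 6.52 and 9.12. Hoxd8, a homeobox factor of body position, was at 5.65 and 8.59, with 9.56 and 9.35 on the others. Expansion A stood alone at the low end for this gene. Cmah, which hydroxylates sialic acid, was at 6.38 on expansion A and 9.20 on extinction B. Cped1 was at 6.76 and 9.44, and Hivep3, a zinc finger protein, was at 5.91 and 8.54. Pgr, the progesterone receptor, was at 7.21 and 9.82, but only 1 of its 3 probe sets shared the direction. For Cmah it was 5 of 6 and for Hivep3 4 of 5. The largest differences toward extinction B also held Dmkn and the iron-binding protein Lcn2, at 6.71 and 9.36. Among symbols of the clone type, 5031426D15Rik was at 4.44 on expansion A and 8.09 on extinction B, a larger difference than that of Ptx3.

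The genes highest on expansion A relative to extinction B were of mixed function. Sprr2h, a cornified envelope protein, was at 6.92 on expansion A and 4.57 on extinction B, 5.11-fold apart, with 8.26 on extinction A and 5.29 on expansion B. Crabp1, which binds retinoic acid, was at 10.01 and 7.75, with 10.50 and 7.69 on the others. Gzme, a granzyme, was at 6.59 and 4.42, with 6.04 and 3.91. In these 3 genes both arrays of tumor A were above both arrays of tumor B. Tgfb1, the growth factor, was at 7.50 on expansion A and 5.59 on extinction B. Axin2, a feedback inhibitor and target of Wnt signaling, was at 9.17 and 7.33. Epha3, an ephrin receptor, was at 9.39 and 7.58, and Slfn4, a Schlafen protein, was at 7.18 and 5.34. For Pcm1, a centriolar satellite protein at 9.15 and 7.17, 3 of 5 probe sets shared the direction. For Tfdp2, a partner of E2F factors at 8.12 and 6.23, it was 3 of 4, and likewise for Jmy, an actin nucleator at 8.76 and 6.89. For Atl1, a GTPase that shapes the endoplasmic reticulum at 7.75 and 5.91, it was 1 of 2. Sox10, described with the melanocyte factors, completed the 12 largest.

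**Figure D4:**
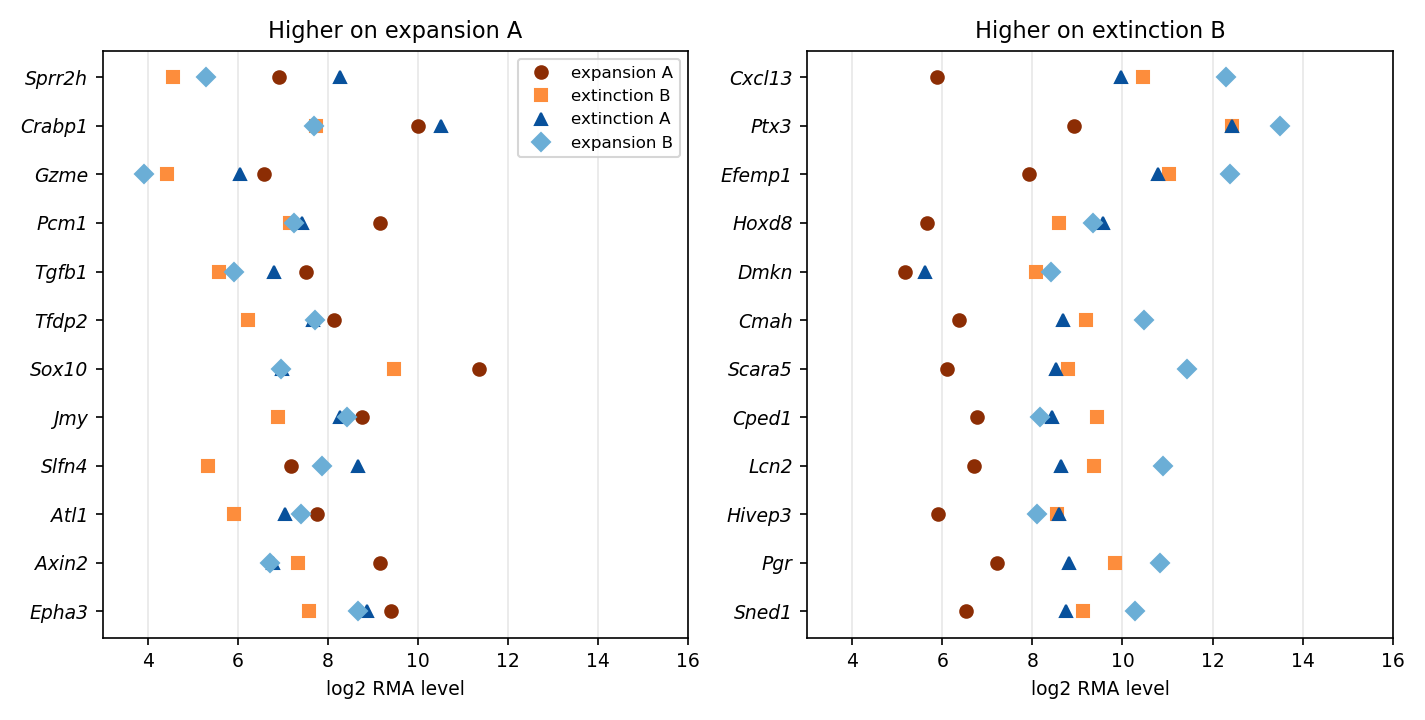
Log2 RMA levels on the 4 arrays for the 12 named genes with the largest difference in each direction between expansion A and extinction B, 1 point an array. Cxcl13 spans 5.89 to 10.46 within the pair, and Sprr2h 4.57 to 6.92 in the other direction.

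Inflammatory lists were lower on expansion A. Their 2-fold counts stand beside 2.37% of all genes at least 2-fold higher on extinction B and 1.62% on expansion A. Of 25 interferon response genes 24 were lower there, 4 by 2-fold, with a median difference of -0.70. Cxcl9, an interferon-induced chemokine, was at 6.38 on expansion A and 8.24 on extinction B, the antiviral GTPase Mx1 was at 5.20 and 6.54, and Gbp6, a guanylate binding protein, was at 6.66 and 8.11. Of 18 acute phase and cytokine genes 14 were lower on expansion A, 6 by 2-fold, with a median of -0.56, or -0.85 with dim probe sets left out. Saa1, serum amyloid A, was at 6.20 on expansion A and 8.66 on extinction B, and the hemoglobin scavenger Hp was at 9.27 and 11.53. Other members were bright and nearly level, such as Il6 at 12.55 on expansion A and 12.58 on extinction B. Of 22 chemokines 6 were at least 2-fold higher on extinction B and 1 on expansion A, with a median of -0.26. Besides Cxcl13 and Cxcl9 these included Cxcl3, a chemokine for neutrophils, at 7.48 and 9.26, whereas Cxcl1 of the same kind was level at 14.29 and 14.37. Ccl4, which draws monocytes, was the member higher on expansion A, at 7.56 and 6.47. For MHC class I and antigen processing the median over 14 genes was -0.27, or -0.16 with the mean of probe sets, with the proteasome subunits Psmb8 at 8.13 and 9.30 and Psmb9 at 7.44 and 8.59 past 2-fold.

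Metabolic lists were shifted the other way by less than 2-fold. Members past 2-fold are to be read beside 1.62% of all genes higher on expansion A and 2.37% on extinction B. Of 24 sterol and fatty acid synthesis genes 23 were higher on expansion A, with a median difference of 0.54 and 3 past 2-fold. Nsdhl, an enzyme of cholesterol synthesis, was at 9.86 on expansion A and 8.59 on extinction B, and Fasn, fatty acid synthase, was at 12.29 and 11.24. Msmo1, a sterol oxidase, was at 11.53 and 10.47, with 1 of its 2 probe sets in that direction. Glycolysis genes were higher on expansion A in 15 of 17 cases, with a median of 0.31 and Aldoc, an aldolase, past 2-fold at 10.61 and 9.35. Lysosome genes had a median of 0.34 over 21 genes, ATF4 target genes 0.31 over 26 and oxidative phosphorylation 0.16 over 23. The lysosome median was 0.20 with the mean of probe sets. Among the ATF4 targets, which answer amino acid stress, Chac1, a glutathione-degrading enzyme, was at 10.65 on expansion A and 9.43 on extinction B, while the factor Cebpb was the other way at 9.87 and 11.46. Several of these pathways are active in melanoma and in endothelial cells alike, and which cells the difference came from was not tested.

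Cell division genes differed little between the arrays. The median difference was 0.19 over 28 mitosis genes, 1 of them past 2-fold, and 0.13 over 27 replication genes, 0 past 2-fold. Of all genes, 3.99% were 2-fold apart in either direction. The medians were 0.05 with the mean of probe sets for mitosis and 0.03 after the lowess fit for replication. Mki67, the proliferation marker, was at 11.28 on expansion A and 11.25 on extinction B. Cytosolic ribosomal protein genes had a median of 0.00 over 17 genes, and hypoxia genes a median of -0.06 over 24, or -0.12 after the lowess fit. Immediate early genes, which follow stimulation or dissociation, were lower on expansion A in 19 of 23 cases, with a median of -0.33. The exception past 2-fold was the nuclear receptor Nr4a3, at 11.31 on expansion A and 9.89 on extinction B, with 2 of 3 probe sets in that direction. In the TGF-beta and activin list 17 of 23 were lower on expansion A, with a median of -0.37. Its ligand Tgfb1 was higher on expansion A, whereas Ltbp1, which tethers the latent ligand to matrix, was at 5.53 on expansion A and 7.89 on extinction B, and the activin inhibitor Fst was at 7.90 and 9.43. In the Wnt list the median over 24 genes was 0.09, or -0.04 with dim probe sets left out, with Axin2 higher on expansion A and the secreted inhibitor Sfrp4 lower there, at 7.30 and 8.90.

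The remaining arrays, extinction A and expansion B, form a pair that differs in the same labels crossed the other way and shares no array with the first. In that pair 2.11% of genes were at least 2-fold higher on extinction A and 3.05% on expansion B. Of the 726 genes 2-fold apart between the melanoma-rich arrays, 145 (20.0%) were 2-fold apart in the same direction by tumor, and they made up 15.5% of the 938 of the other pair. By clone class 37 genes (5.10%) were 2-fold apart in both pairs in the same direction, or 3.94% of the 938. The remaining 544 were 2-fold apart in the first pair only. Of the 145, 14 (0.077% of all genes) had the tumor A array on top, and 131 (0.72%) the tumor B array. At 2-fold each pair by itself also had more genes higher on its tumor B array, though not at 1.5-fold in the first pair. In the other pair the pigment list was higher on the tumor A array, with a median difference of 0.97, extinction A minus expansion B. Of its 11 genes 4 were at least 2-fold higher there, beside the 2.11% of all genes. The pan-endothelial median in that pair was -0.30. In both pairs the tumor A array thus had the higher pigment median and the lower pan-endothelial median. What part this had in the 145 genes was not tested.

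Genes higher in tumor B in both pairs included, beside Cxcl13, Dmkn, Scara5, Saa1 and Car3, the matrix proteoglycan Ogn, at 7.64 on expansion A and 9.98 on extinction B, with 10.01 on extinction A and 12.38 on expansion B. Saa1 was at 6.71 on extinction A and 10.05 on expansion B, and Scara5 at 8.53 and 11.42. Within each pair the array of tumor B was the higher for all 3 genes, while across the pairs extinction A and extinction B were close for Ogn and Scara5. Those higher in tumor A included Sprr2h, Crabp1, Gzme and Tyr, which was 1.30 apart in the first pair and 1.98 in the other, and Stbd1, a glycogen-binding protein at 6.01 and 4.20 in the first pair and 7.68 and 5.17 in the other. Tyr is among the pigment genes whose levels chose the first pair. The chromodomain gene Cdyl2 was at 5.51 and 4.33, then 7.13 and 5.91.

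By clone class, 13 genes (0.0715% of all) were 2-fold higher on the expansion array of both pairs. They were among the 295 genes 2-fold higher on expansion A. In the other pair, 3.05% of all genes were 2-fold higher on expansion B. Apoe, which carries lipids, was at 11.70 on expansion A and 10.25 on extinction B, then 10.37 on expansion B and 8.75 on extinction A. Col4a5, a basement membrane collagen, was at 7.47 and 6.03, then 7.96 and 6.64. Ptger4, a prostaglandin receptor, was at 6.52 and 5.34, then 10.18 and 8.38, and only 1 of its 2 probe sets shared the direction. Abat, which breaks down the transmitter GABA, was at 5.70 and 4.54, then 6.25 and 4.87, also with 1 of 2. Osbpl6, a lipid-binding protein, was at 8.72 and 7.39, then 6.08 and 4.77, with 3 of 5. Adhfe1, a mitochondrial dehydrogenase, was at 8.82 and 7.59, then 6.84 and 5.38, with 2 of 3.

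On the extinction array of both pairs 24 genes (0.132%) were 2-fold higher, led by Cxcr4. They were among the 431 genes 2-fold higher on extinction B. In the other pair, 2.11% of all genes were 2-fold higher on extinction A. Tmem255a, a membrane protein, was at 9.34 on extinction B and 7.16 on expansion A, then 9.97 on extinction A and 7.83 on expansion B. Glipr1, a secreted-protein relative, was at 9.21 and 6.91, then 7.29 and 5.47. Ms4a6d, a macrophage membrane protein, was at 7.30 and 5.47, then 7.81 and 5.84, with 2 of its 3 probe sets in that direction in the first pair. Esco2, which joins sister chromatids, was dim at 5.53 and 3.93, then 5.76 and 3.74, all below the all-probe-set median of 5.83. With Cxcr4 and Kcne3, these were the 6 genes whose smaller difference of the pair was largest. With 1 array for each class and tumor, genes that keep a direction in both pairs have 2 differences and no test. With the probe sets of each gene averaged, 19 genes were 2-fold apart by clone class in both pairs in place of 37.

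**Figure D5:**
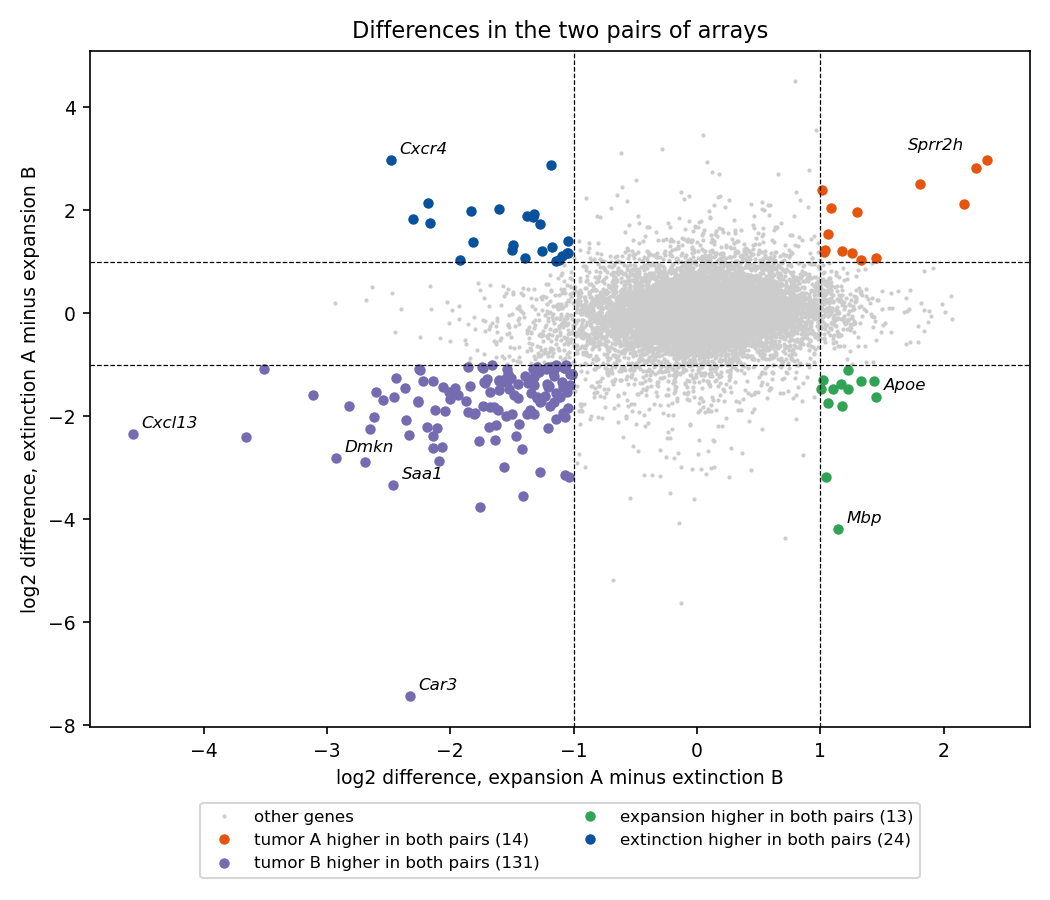
Log2 difference of expansion A minus extinction B (horizontal) against that of extinction A minus expansion B (vertical), with 1 point a gene and dashed lines at 2-fold. The colored points are the 14 and 131 genes that were 2-fold apart by tumor in both pairs and the 13 and 24 that were so by clone class.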

How the data were processed

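Each of the 4 arrays (Affymetrix Mouse430_2) measured RNA of sorted cells that was extracted with TRIzol and amplified in 2 rounds before labelling, per the labels' protocols. The deposited values are on a log2 scale and were made by the authors, whose processing notes name RMA and affy and give no version. The arrays are quantile-normalized together in RMA, so a level on 1 array depends on the others. Levels were set against each other between genes only to rank genes as bright or dim and to take list medians.

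The table held 45101 probe sets, 64 of them controls that were kept apart, and 34945 of the other 45037 had 1 symbol in the platform annotation, 932 several and 9160 none or no entry there. Each of 18193 genes was represented by its brightest probe set, by mean of the 4 arrays, and 9010 genes had more than 1. Group labels came from the sample titles. With 1 array a side no test was run, and a fold of 2 was the threshold. The number of arrays, and not a depth of reads, limits the precision.

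The 2 arrays, the 50 gene lists and the rule for named genes were chosen with earlier results of these data known. Named by rule were the 12 largest differences in each direction whose higher level reached the median of all probe sets, leaving out clone-type symbols, all measured pigment genes, Pecam1, Cdh5 and Ptprc, up to 3 genes past 2-fold and 3 brightest genes a list, and up to 6 genes a direction past 2-fold in both pairs. Genes with the widest gap to the other arrays, and other list members named for their level or role, were chosen after their values were seen. Alternatives were normalization, centring, a lowess fit, a filter on dim probe sets, the choice of probe set and the fold threshold. The counting was tested on simulated data. Python 3.11.15, pandas 2.3.3, numpy 2.4.6, statsmodels 0.14.6 and matplotlib 3.10.9 were used.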

Additional observations from a re-analysis of the deposited data

Results flagged for a closer look

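In 37 genes the clone classes were at least 2-fold apart in the same direction in both pairs of arrays, so that the difference between tumor A and tumor B ran opposite ways in the pairs, as for Cxcr4, Apoe and Mbp. With 1 array for each class in each tumor this difference was not tested. The 37 were 5.10% of the 726 genes 2-fold apart between the melanoma-rich arrays, while 145 (20.0%) kept the direction by tumor. In the other pair 2.11% of all genes were 2-fold higher on extinction A and 3.05% on expansion B. With the probe sets of each gene averaged, 19 genes were 2-fold apart by clone class in both pairs.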

How the results depend on the processing

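The counts depended on how probe sets were combined and on the fold. With the mean of all probe sets of a gene, 163 genes were at least 2-fold higher on expansion A and 286 on extinction B, 19 were 2-fold apart by clone class in both pairs, and the fibroblast median was -0.41. At 1.5-fold the counts were 1499 and 1234, with 551 by tumor and 251 by clone class in both pairs, and at 3-fold they were 26, 118, 42 and 6. The larger side therefore switched at 1.5-fold, where 54.8% of the genes were higher on expansion A, against 40.6% at 2-fold. Under renewed quantile normalization, median centring, the lowess fit, the filter on dim probe sets and the other choice of probe set, these counts stayed within 1.5 times and the pigment and pan-endothelial medians kept their sign, between 0.60 and 0.69 and between -1.08 and -0.85, the mean of probe sets included. Of 110 named genes, 33 crossed the 2-fold line with the mean of probe sets, 4 with the lowess fit, and 0 reversed direction past 2-fold. No paired analysis was possible in this comparison because the 2 arrays compared come from different tumors. Dim genes give few calls: 0.572% of the genes in the lowest of 4 equal bins by level were 2-fold apart, against 7.37% in the third bin.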

Other observations

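Of 6 measured X-inactivation and Y-linked genes, 4 on each melanoma-rich array were lower than on both other arrays. On both melanoma-rich arrays 5 of the 6 were below the median of all probe sets. Among the 4 were Eif2s3y, Kdm5d and Uty, Y-linked genes that only male cells carry. Eif2s3y was at 6.77 on expansion A and 7.71 on extinction B, against 8.83 on extinction A and 9.13 on expansion B. Kdm5d, a histone demethylase, was at 4.86 and 5.09, against 6.79 and 7.11. Uty was at 4.49 and 5.57, against 6.05 and 6.16. Within the pair all 3 were lower on expansion A, as the pan-endothelial genes were. Xist, which is transcribed from the inactive X of female cells, was dim and level on the 4 arrays at 5.50, 5.53, 5.60 and 5.39. The melanoma-rich arrays were also the closest of all pairs of arrays by count: 726 genes were 2-fold apart between them, 938 between extinction A and expansion B, and from 2229 to 3310 between an array of one pair and an array of the other. The pairs were formed by pigment gene levels on these same arrays, so the smaller counts within the pairs are a description of that choice.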
